A study of Homo sapiens with 105 samples.

Results

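The lipopeptide MALP2 (macrophage activating lipopeptide 2) was one of the pro-inflammatory compounds applied to the human vaginal epithelial line Vk2/E6E7, and its arrays were compared with those of cells left in growth medium alone (GM). The comparison used 6 MALP2 arrays (200 ng/ml for 6 h) and 53 GM arrays of the 105 arrays deposited, and every probeset other than the Affymetrix controls was included. For reference, TNF-α (40 ng/ml, 5 arrays) was tested directly against MALP2, and Pam3CSK4 (10 μg/ml, 6 arrays), a related lipopeptide given at another dose, was set beside it without a test. Both were also given for 6 h. Arrays of imiquimod, nonoxynol-9 (N-9), hydroxyethyl cellulose (HEC) and CMC, given for the same time, entered the normalization and the shared estimate of spread. All groups were the same line, which carries the E6 and E7 genes of a papillomavirus. A single immortalized epithelial line, cultured without stroma or immune cells, thus stands for vaginal epithelium. The labels call the arrays biological replicates but do not say which of them shared a culture or a day, so the p-values cover only how much these arrays vary, which may be technical.

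MALP2 is a diacylated lipopeptide that is bound by the receptor pair TLR2 and TLR6, whereas the triacylated Pam3CSK4 is bound by TLR1 and TLR2. Both receptor pairs signal through MyD88 and the IRAK kinases to the IκB kinase complex, which frees the transcription factor NFκB, and NFκB in turn induces chemokines, cytokines and its own inhibitors. Stratified squamous epithelium uses this route to call neutrophils and other leukocytes to the mucosal surface, and the same cells build the cornified envelope and cell junctions that form the mucosal barrier.

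The 8 epithelial markers with a probeset had GM means between 12.61 and 15.06 on the log2 scale, and none changed with MALP2 (2 of 8 were higher and none lower at an unadjusted p under 0.05 in limma). The 14 leukocyte markers had GM means between 2.38 and 7.31 and MALP2 means between 2.50 and 7.35, their summed linear signal was 839 to 1909 on the GM arrays and 832 to 1229 on the MALP2 arrays, and none changed (1 was lower at an unadjusted p under 0.05). None of the 12 fibroblast and endothelial or the 6 melanocyte markers changed either, nor passed an unadjusted p of 0.05. Of the arrays used, MALP2 replicate 1 had a 3′ ACTB control probe that exceeded the 5′ probe by 1.15 on the log2 scale, against a GM median of 0.378 (range 0.118 to 2.05), and results that differed without it are given where they occur. GM replicate 52 (correlation of at most 0.048 with any other array) and TNF-α replicate 6 (the mean of TNF-α replicates 1 to 3 to within 7.7e-09) were left out. GM replicate 15 was kept, although it was the highest GM array on BCL2A1 (10.52), CCL20 (11.25), OLR1 (12.48) and IL1R2 (9.61). It was also highest in the median over interferon-stimulated genes (2.08 above the GM mean), chemokines (0.91) and NFκB pathway genes (0.48). Over cornified envelope genes it was at -0.36. It thus set the upper end of several GM ranges below, and what sets it apart was not tested.

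Genes for neutrophil-attracting chemokines and interferon-stimulated genes were among those that rose, and the sequence just upstream of several of them is shown here because it carries the letters that NFκB, the interferon-activated factor ISGF3 and AP-1 are known to prefer. The sequences are RefSeq promoters of build GRCh38.p14, from 250 bases before to 50 bases after the gene start, 5′ to 3′ along the gene, and capitals mark matches to the NFκB consensus, to the interferon-stimulated response element (ISRE) core TTTCNNTTTC or to the AP-1 core TGANTCA, searched on both strands.
CXCL1 (chr4:73869143-73869442, + strand): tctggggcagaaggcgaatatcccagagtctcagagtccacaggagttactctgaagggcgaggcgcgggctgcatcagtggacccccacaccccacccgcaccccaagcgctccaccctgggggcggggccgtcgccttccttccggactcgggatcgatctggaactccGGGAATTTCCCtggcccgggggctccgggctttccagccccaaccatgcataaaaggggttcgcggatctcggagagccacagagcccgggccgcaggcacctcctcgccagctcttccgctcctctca
CXCL2 (chr4:74099146-74099445, - strand): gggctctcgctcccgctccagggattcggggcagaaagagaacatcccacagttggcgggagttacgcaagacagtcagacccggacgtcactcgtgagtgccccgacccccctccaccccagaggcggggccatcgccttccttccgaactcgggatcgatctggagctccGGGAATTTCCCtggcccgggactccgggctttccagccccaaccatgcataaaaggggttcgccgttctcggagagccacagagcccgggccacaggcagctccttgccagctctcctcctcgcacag
CXCL3 (chr4:74038640-74038939, - strand): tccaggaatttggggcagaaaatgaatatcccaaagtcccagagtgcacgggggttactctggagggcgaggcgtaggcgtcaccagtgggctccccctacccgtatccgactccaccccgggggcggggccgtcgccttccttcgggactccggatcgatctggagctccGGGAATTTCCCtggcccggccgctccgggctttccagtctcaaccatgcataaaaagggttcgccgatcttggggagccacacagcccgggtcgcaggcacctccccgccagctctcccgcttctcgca
CXCL8 (chr4:73740319-73740618, + strand): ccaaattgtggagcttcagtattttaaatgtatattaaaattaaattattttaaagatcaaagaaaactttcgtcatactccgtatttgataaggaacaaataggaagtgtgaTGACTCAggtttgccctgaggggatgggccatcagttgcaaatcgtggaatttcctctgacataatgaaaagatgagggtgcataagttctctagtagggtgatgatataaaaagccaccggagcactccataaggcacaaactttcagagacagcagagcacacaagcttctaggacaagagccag
CXCL10 (chr4:76023448-76023747, - strand): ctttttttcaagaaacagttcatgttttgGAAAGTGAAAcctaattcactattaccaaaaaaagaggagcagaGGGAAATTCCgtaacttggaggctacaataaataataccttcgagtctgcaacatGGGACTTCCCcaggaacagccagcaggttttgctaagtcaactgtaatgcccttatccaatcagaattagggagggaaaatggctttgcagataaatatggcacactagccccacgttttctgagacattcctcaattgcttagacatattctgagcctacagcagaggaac
BCL2A1 (chr15:79971147-79971446, - strand): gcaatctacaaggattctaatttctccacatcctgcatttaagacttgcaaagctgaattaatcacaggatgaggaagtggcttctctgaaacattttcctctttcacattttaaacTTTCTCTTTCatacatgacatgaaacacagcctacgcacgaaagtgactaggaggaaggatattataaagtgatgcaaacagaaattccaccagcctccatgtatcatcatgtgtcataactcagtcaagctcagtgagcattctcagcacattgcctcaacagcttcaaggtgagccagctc
IFIH1 (chr2:162318635-162318934, - strand): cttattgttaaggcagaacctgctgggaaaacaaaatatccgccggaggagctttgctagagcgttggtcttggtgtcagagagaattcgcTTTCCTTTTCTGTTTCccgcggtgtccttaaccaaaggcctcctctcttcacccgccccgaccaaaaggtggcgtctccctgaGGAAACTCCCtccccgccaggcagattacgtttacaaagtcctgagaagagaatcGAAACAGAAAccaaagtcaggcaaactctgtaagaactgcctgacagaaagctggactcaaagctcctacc
MX1 (chr21:41420308-41420607, + strand): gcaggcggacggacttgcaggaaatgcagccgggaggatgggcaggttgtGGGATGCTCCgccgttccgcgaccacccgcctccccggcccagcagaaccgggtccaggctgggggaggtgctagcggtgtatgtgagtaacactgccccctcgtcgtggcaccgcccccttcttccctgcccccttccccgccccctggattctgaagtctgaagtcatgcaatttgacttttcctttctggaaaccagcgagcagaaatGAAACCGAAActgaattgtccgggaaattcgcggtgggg

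CXCL1, CXCL2 and CXCL3, which lie together on chromosome 4, held the identical match GGGAATTTCC, beginning 79, 78 and 79 bases before the gene start, and each of these overlapped a further match on the other strand by all but 1 base. CXCL10 held a pair of NFκB matches at 177 and 122 bases and an ISRE core at 221 bases before its start. CXCL8 held an AP-1 core at 137 bases and no match to the NFκB consensus as searched in this window. IFIH1 held an NFκB match at 76 bases and ISRE cores at 159, 153 and 21 bases, the first pair overlapping. BCL2A1 held an ISRE core in its window, and MX1 had an NFκB match 200 bases before and an ISRE core 11 bases past its start. Of the 12 chemokine genes that rose, 9 had a RefSeq promoter and 7 of these (77.8%) held the NFκB consensus, which 11.3% of all 34943 promoters did. CXCL1, CXCL2 and CXCL3, with their identical match, were among the 7, so these promoters are not all separate cases. Of the 30 interferon-stimulated genes that rose, 24 had a promoter and 14 (58.3%) held the ISRE core, against 3.57% of all promoters. Of the 17 NFκB pathway genes that rose, 15 had a promoter and 6 of these (40%) held the NFκB consensus. Among the 25 genes that rose most 19 had a promoter, and 5 of these (26.3%) held the NFκB consensus, 2 (10.5%) the ISRE core and 4 (21.1%) the AP-1 core. For the 15 genes that fell most 13 had a promoter, and 2 of these (15.4%) held the NFκB consensus. The ISRE core and the AP-1 core were each in 1 of them (7.69%). The AP-1 core was in 7.72% of all promoters and in 0 of the 15 of NFκB pathway genes that rose. A match describes letters in a window and is neither a binding site nor a cause.

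MALP2 raised 734 and lowered 466 of the 54613 probesets tested (limma, p adjusted by Benjamini-Hochberg below 0.05, fold above 2), which is 1.34% higher and 0.853% lower. They named 477 genes that rose and 324 that fell, with 3 genes in both sets by different probesets. The rises were the larger changes, since 185 of the 734 exceeded 4-fold and 25 exceeded 16-fold, whereas 51 of the 466 falls exceeded 4-fold and none exceeded 16-fold. On 18.1% of the raised and 4.94% of the lowered probesets the MALP2 arrays did not overlap with any GM array. Without the limit on the fold, 3.28% of the probesets were higher and 3.66% lower. The median change was a fold of 2.83 among those raised and 2.61 among those lowered. In 302 of the lowered probesets and 204 of the raised ones the lower of both group means was under 6 on the log2 scale, called dim here because folds at that level are less certain.

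The largest rises were those of CCL20, CXCL8, BCL2A1, IL1R2, LINC01127, IL13RA2 and OLR1, in this order. CCL20, the chemokine that draws CCR6-bearing dendritic cells and T cells, stood at 2.69 to 11.25 (median 5.05) on the GM arrays and at 11.66 to 13.09 (median 12.29) on the MALP2 arrays. The groups did not overlap, and the difference was 6.77 ± 0.66 (SE) on the log2 scale, a fold of 109 (limma, adjusted p = 4.9e-14). Since its GM mean of 5.53 was dim, the difference with an offset of 16 added to the linear signals was 6.15.

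BCL2A1, a BCL2 relative that blocks apoptosis, was between 4.97 and 10.52 (median 6.51) with GM and between 12.26 and 12.64 (median 12.27) with MALP2. Every MALP2 array lay above every GM array, and the rise was 5.87 ± 0.35, a fold of 58.5 (adjusted p = 4.8e-26). IL1R2, the decoy receptor that binds IL-1 without signalling, was between 2.35 and 9.61 (median 6.21) with GM and between 11.52 and 12.42 with MALP2. The groups were again apart and the rise was 5.74 ± 0.48, a fold of 53.6 (adjusted p = 4.2e-17). OLR1, the receptor for oxidized LDL known as LOX-1, was between 6.56 and 12.48 (median 8.17) with GM and between 13.22 and 13.62 with MALP2. It rose by 5.17 ± 0.35, a fold of 36.0 (adjusted p = 1.2e-22), with no overlap between the groups.

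CXCL8, the neutrophil chemokine IL-8, has 2 probesets that name it alone, and they differed in size. On the dimmer one the GM arrays ranged from 2.71 to 9.85 and the MALP2 arrays from 10.02 to 13.70, a rise of 6.02 ± 0.57 with no overlap (adjusted p = 1.3e-14). On the brighter one the GM arrays ranged from 6.94 to 13.24 (median 8.46) and the MALP2 arrays from 12.80 to 14.61, so that 14 GM arrays reached the lowest MALP2 array, and the rise was 4.09 ± 0.75 (adjusted p = 3.7e-05). CXCL8 was also among the genes whose MALP2 arrays fell into separate sets, as the plot of single arrays shows. Replicates 1 to 3 were at 10.02 to 11.09 and replicates 4 to 6 at 13.52 to 13.70 on the dimmer probeset. BCL2A1, IL1R2 and OLR1 showed no such gap, with differences from GM of 5.82, 6.00 and 5.08 in replicates 1 to 3 and of 5.92, 5.49 and 5.26 in replicates 4 to 6.

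**Figure D1:**
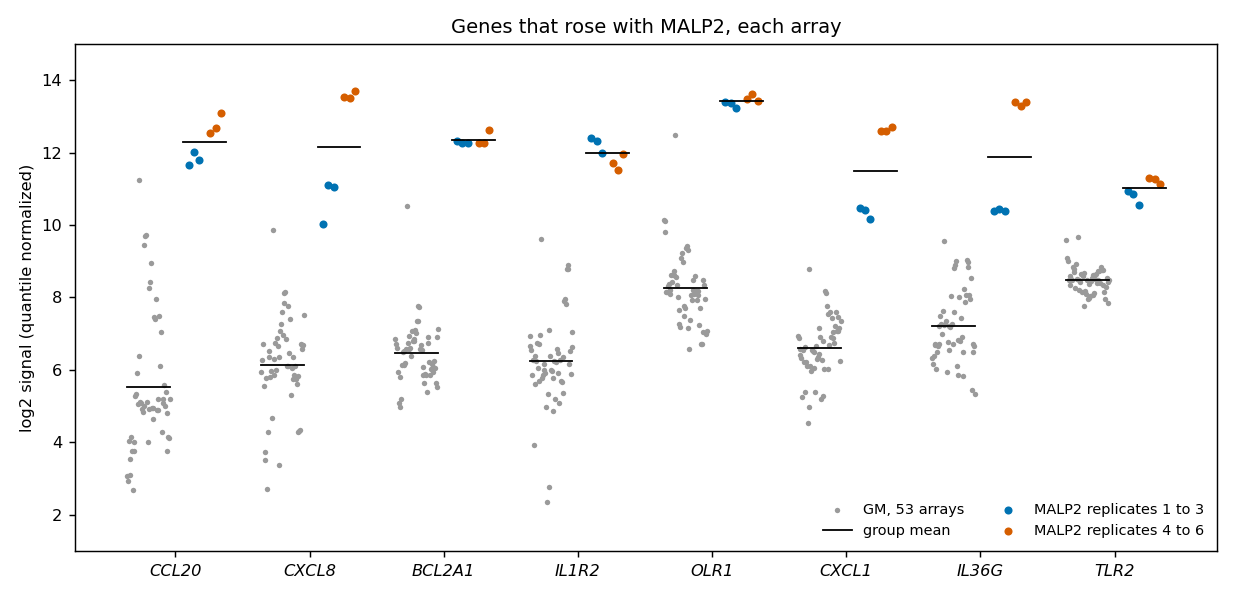
Log2 signal (y axis, quantile normalized) of 8 genes that rose with MALP2, 1 point per array, for 53 GM arrays (grey) and 6 MALP2 arrays (blue, replicates 1 to 3; orange, replicates 4 to 6), with group means as bars. All 6 MALP2 arrays lie above all GM arrays for each probeset shown, and the highest GM array on each is replicate 15. CXCL8 is shown on its dimmer probeset, and on the brighter one 14 GM arrays reached the lowest MALP2 array. CXCL8, CXCL1 and IL36G are higher in replicates 4 to 6, and CCL20 and TLR2 are so by less. BCL2A1 and OLR1 are nearly level between the sets and IL1R2 is somewhat lower in replicates 4 to 6.

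Several of the genes with large rises are not chemokines or cytokines. MGAM, the brush-border enzyme maltase-glucoamylase, went from 2.51 ± 0.80 (SD, n = 53) to 7.56 ± 0.83 (SD, n = 6), a log2 difference of 5.06 (3.21 with the offset of 16, adjusted p = 4.2e-20). The long non-coding RNA LINC01127 went from 3.42 ± 1.39 to 8.73 ± 0.22 (difference 5.31, or 3.89 with the offset). NFATC2, a calcium-regulated transcription factor, rose by 4.37 from a dim 4.39 (3.42 with the offset), though only 2 of its 4 probesets rose. COXFA4L3 rose by 4.38 ± 0.45 from 9.17, and EDN1, which encodes the vasoconstrictor peptide endothelin, by 3.81 ± 0.36 from 8.85 (adjusted p = 1.4e-14). On EDN1 every MALP2 array exceeded every GM array.

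Counted by gene, with the brightest probeset that names it alone and at an adjusted p under 0.05 with no limit on the fold, 5% of 19775 genes rose and 4.6% fell, and the median difference was 0.0095. Against these shares, lists of genes of the NFκB pathway, chemokines, interferon-stimulated genes and the IL-1 family held many members that rose and none that fell, as shown in the plot of gene lists (no member of these 4 lists was lower at an unadjusted p under 0.05). Lists and members were chosen with earlier results of these data known, so a share above that of all genes describes the lists and is no independent evidence. The members were given in their brightest single-gene probeset throughout unless stated.

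**Figure D2:**
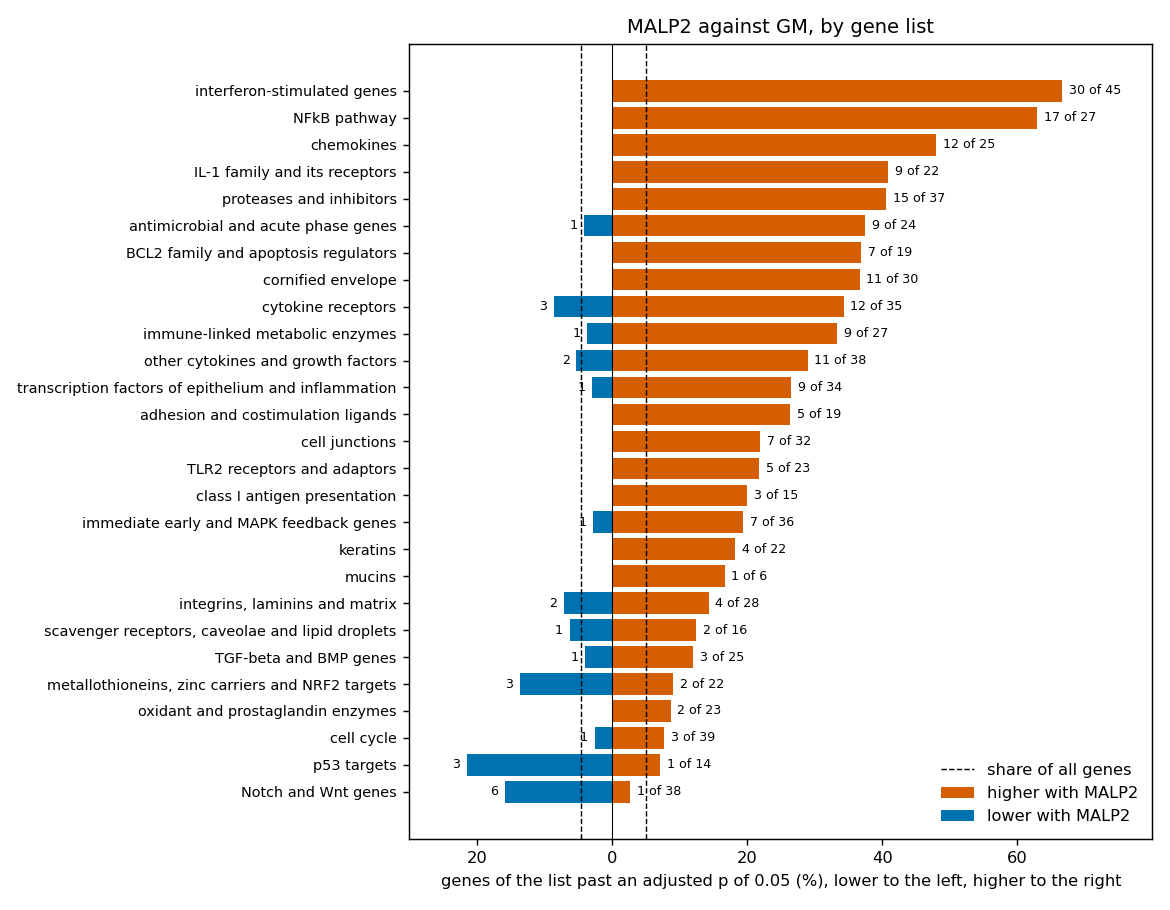
Share of each gene list (x axis, percent of members with a probeset) past an adjusted p of 0.05, higher with MALP2 to the right (orange) and lower to the left (blue), with member counts beside the bars and dashed lines at the shares over all genes (5% and 4.6%). Interferon-stimulated genes (30 of 45), NFκB pathway genes (17 of 27) and chemokines (12 of 25) had the highest shares that rose, and p53 targets (3 of 14) and Notch and Wnt genes (6 of 38) the highest shares that fell, counts that became 1 and 3 with sets of arrays as a random block. The lists were chosen with earlier results of these data known.

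Of the 23 genes of TLR2 receptors and their adaptors, 5 rose and none fell, with a median difference of -0.059, and 3 rose with the random block. TLR2 itself, the receptor subunit of the ligand, ranged from 7.76 to 9.67 (median 8.48) on the GM arrays and from 10.55 to 11.31 on the MALP2 arrays. Every MALP2 array was above every GM array, which was so for 0.511% of all genes, and TLR2 rose by 2.52 ± 0.17 (adjusted p = 4.4e-23). Its partner TLR6 had a dim GM mean of 5.90 ± 0.65 and a MALP2 mean of 5.08 ± 0.87 (difference -0.82 ± 0.32, or -0.58 with the offset, adjusted p = 0.12), and TLR1 stood at 5.07 ± 0.91 and 4.51 ± 0.94 (adjusted p = 0.43). The co-receptor CD14 was at 7.04 ± 1.19 with GM and 5.79 ± 0.48 with MALP2 (adjusted p = 0.14). Downstream, the adaptor MYD88 rose by 1.14 ± 0.13 (adjusted p = 4.9e-11) and the kinase IRAK2 by 1.54 ± 0.22 (adjusted p = 8.7e-08). The smaller rises of the TLR3 adaptor TICAM1 (0.73) and of TAB3 (0.33), a subunit of the TAK1 kinase complex, were lost with sets of arrays as a random block (adjusted p = 0.40 and 0.098). TICAM1 was lost also without any of MALP2 replicates 1, 3, 4, 5 or 6 (adjusted p between 0.0547 and 0.102) and TAB3 without replicate 5 or 6 (0.0919 and 0.0735).

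Feedback inhibitors and subunits of NFκB were among the genes that rose. In the NFκB pathway list 17 of 27 genes rose and none fell, with a median difference of 0.68, and 12 rose with sets of arrays as a random block. The count was 8 with MALP2 replicates 1 to 3 alone. It was 7 with the methods' analysis of variance, whose p-value was for all treatment groups together and which was counted with the 2-fold limit. In the main fit 7 genes of the list also rose by more than 2-fold. TNFAIP3, the ubiquitin-editing inhibitor A20, ranged from 9.26 to 13.34 (median 10.43) with GM and from 13.20 to 13.51 with MALP2, a rise of 2.97 ± 0.24 (adjusted p = 7.0e-18). A single GM array reached the MALP2 range. TNIP1, which acts with A20, rose by 2.06 ± 0.17, and NFKBIA, the inhibitor IκBα that NFκB restores, rose by 1.37 ± 0.28. NFKBIZ, a nuclear IκB protein that turns on secondary NFκB targets, rose by 2.16 ± 0.22 with all 6 MALP2 arrays above GM. Among the subunits themselves RELB rose by 1.05 ± 0.18, NFKB2 by 1.02 ± 0.20 and NFKB1 by 0.93 ± 0.14. RELA, the transactivating partner of NFKB1, had a difference of 0.49 (adjusted p = 0.024), which was lost with the random block (adjusted p = 0.13) and without MALP2 replicate 1, 2 or 4 (adjusted p = 0.116, 0.0524 and 0.0544). BIRC2, a ubiquitin ligase of the pathway, and NFKBIE rose by 0.99 ± 0.13 and 0.72 ± 0.11, on both with no overlap between the groups. On each MALP2 array the median over the list was above that of every GM array.

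Of 25 chemokines 12 rose, all by more than 2-fold, and none fell (median difference 0.96), and the count was also 12 with the random block. Ligands of CXCR2, which attract neutrophils, were among them, though CXCL6, another such ligand, was dim in both groups at 5.25 and 5.67 (adjusted p = 0.68). CXCL1 ranged from 4.53 to 8.79 with GM and from 10.17 to 12.71 with MALP2, a rise of 4.88 ± 0.38 (adjusted p = 5.3e-19). CXCL2 rose by 2.99 ± 0.32, CXCL3 by 3.29 ± 0.36 and CXCL5 by 1.77 ± 0.32 from a dim 5.11 (1.39 with the offset). PPBP, the precursor of another ligand of the family, rose by 3.15 ± 0.64 from a dim 4.95 (2.44 with the offset). The MALP2 arrays lay above all GM arrays for CXCL1 and CXCL2.

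The leukocyte-attracting chemokines CCL4 and CCL5 rose as well. CCL4 was dim on every GM array, at 2.51 to 4.98, and reached 6.52 to 8.69 with MALP2 (difference 4.57 ± 0.25, 3.21 with the offset, adjusted p = 5.4e-28). CCL5 rose by 2.50 ± 0.32 on its brighter probeset. On a dimmer one, with a GM mean of 4.61, it rose by 4.94 (4.01 with the offset), made up of 6.11 in replicates 1 to 3 and 3.78 in replicates 4 to 6. CXCL10 and CXCL11, interferon-inducible ligands of CXCR3 that draw T cells, differed by array set. CXCL10 rose by 3.81 ± 0.40 (adjusted p = 9.1e-13), made up of 4.90 in replicates 1 to 3 and 2.71 in replicates 4 to 6, and CXCL11 rose by 3.45 ± 0.64, made up of 5.68 and 1.22. CXCL9 was at 6.75 ± 0.71 and 7.03 ± 0.36 (adjusted p = 0.71), and CCL2, the monocyte chemokine, was dim in both groups at 2.60 and 2.89. CXCL16, a membrane-bound chemokine, rose by 1.61 ± 0.24 with differences of 1.60 and 1.62 in the array sets.

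Of 22 genes of the IL-1 family and its receptors, 9 rose and none fell (median difference 0.51). IL36G, an epithelial IL-36 cytokine, went from 7.22 ± 1.00 to 11.89 ± 1.62 (difference 4.67 ± 0.41, adjusted p = 2.4e-16), with 10.39 to 10.45 in MALP2 replicates 1 to 3 and 13.30 to 13.41 in replicates 4 to 6. IL33, a nuclear alarmin, went from 6.51 ± 1.15 to 10.44 ± 0.40 (difference 3.94 ± 0.49), and its receptor IL1RL1 from 8.10 ± 1.09 to 10.04 ± 0.50. Antagonists rose with the agonists, since IL1RN, which blocks the IL-1 receptor, rose by 2.27 ± 0.29 to 14.01 and IL36RN by 1.68 ± 0.39. The signalling receptor IL1R1 rose by 0.91 ± 0.21. IL1B was abundant in both groups, at 12.24 ± 0.73 and 13.02 ± 0.74, and its difference of 0.79 was lost with the random block (adjusted p = 0.11) and without MALP2 replicate 4, 5 or 6 (adjusted p = 0.199, 0.202 and 0.212).

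Among 38 other cytokines and growth factors 11 rose and 2 fell (median difference 0.53), and 7 rose and 0 fell with the random block. The 2 falls were 0 without MALP2 replicate 4 or 5 and 1 without replicate 1, 2 or 6. IFNK, the interferon of keratinocytes, ranged from 1.09 to 7.68 with GM and from 9.42 to 10.43 with MALP2 (difference 4.45 ± 0.65, 3.81 with the offset, adjusted p = 1.6e-07), without overlap and with 4.16 and 4.75 in the array sets. INHBA, a subunit of activin, rose by 2.69 ± 0.28 and the EGF receptor ligands TGFA and HBEGF by 1.59 ± 0.22 and 1.14 ± 0.28. IL6 rose by 1.13 ± 0.30 to 7.81 ± 0.27 and IL23A, a subunit of IL-23, by 1.42 ± 0.28 to 7.86 ± 0.27. TNFSF10, the death ligand TRAIL, rose by 1.64 ± 0.41, made up of 2.85 in replicates 1 to 3 and 0.43 in replicates 4 to 6. TSLP, an epithelial cytokine that acts on dendritic cells, went from a dim 4.95 ± 1.45 to 7.31 ± 0.85 (difference 2.36, 1.75 with the offset), and was lost with the random block (adjusted p = 0.087). TNF was at 6.30 ± 0.79 and 6.92 ± 0.17 (adjusted p = 0.20).

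In the list of cytokine receptors and their regulators 12 of 35 rose and 3 fell (1 fell without MALP2 replicate 4 or 5). IL13RA2, the decoy receptor for IL-13, went from a dim 4.53 ± 1.47 to 9.75 ± 0.34 (difference 5.22 ± 0.67, 4.32 with the offset, adjusted p = 4.0e-09). IL7R rose by 2.47 ± 0.24, SOCS1, an inhibitor of JAK kinases, by 1.59 ± 0.19, IL22RA1 by 1.00 ± 0.16 and OSMR, the oncostatin M receptor, by 0.93 ± 0.16. IL20RB, a receptor chain for IL-19, IL-20 and IL-24, fell by 1.37 on the log2 scale (SE 0.19) from 11.47, with all 6 MALP2 arrays below the GM arrays.

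Interferon-stimulated genes had the highest share of members that rose, 30 of 45 with none lower and a median difference of 1.55, but the MALP2 arrays fell into separate sets on them. The median over the list was 3.01, 2.80 and 2.60 above the GM mean in MALP2 replicates 1, 2 and 3 and 0.39, 0.36 and 0.35 in replicates 4, 5 and 6. None of the 53 GM arrays reached the first set, whereas 19 reached the second. All 45 genes had the larger difference in replicates 1 to 3, with a median of 2.76 against 0.32, while over all genes the medians were 0.026 and 0.0042. Tested alone, replicates 1 to 3 raised 42 of the 45 genes, where 2.97% of all genes rose, and replicates 4 to 6 raised 5, where 3.17% of all genes rose.

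The count of 30 became 19 without any of MALP2 replicates 1, 2 or 3, between 31 and 33 without replicate 4, 5 or 6, and 21 with sets of 3 arrays as a random block. It was 16 with GM replicates 1 to 6 as the controls. It was also 19 without the 4 arrays whose ACTB difference exceeded 1, MALP2 replicate 1 among them. GM arrays taken in the same way, 3 consecutive numbers at a time, also differed on this list. Their set means were between -1.20 and 1.47 over 18 sets and single arrays between -1.24 and 2.08. The highest array was GM replicate 15, which was in the highest set, and the other arrays of that set were at 1.09 and 1.25. The labels do not say that consecutive numbers were handled together, and what separates the sets was not tested. Over all probesets the MALP2 arrays' deviations from their mean correlated between -0.030 and 0.065 within a set and between -0.37 and -0.33 across sets. Each array is part of that mean, so a negative correlation would be present even between unrelated arrays.

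**Figure D3:**
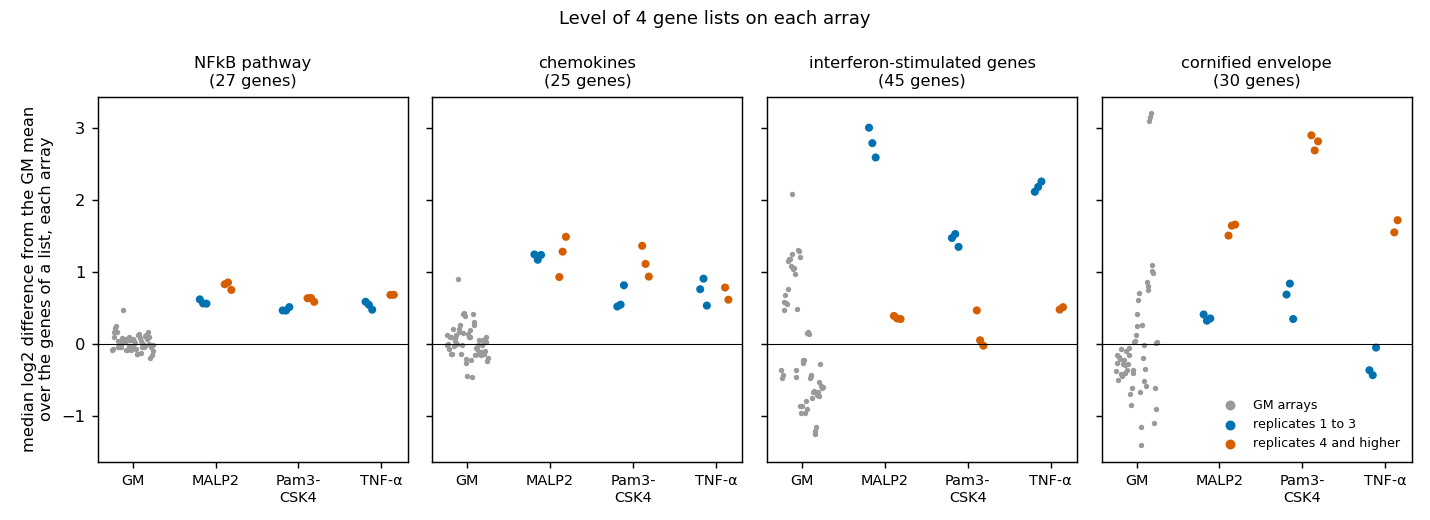
Median log2 difference from the GM mean (y axis) over the genes of 4 lists, 1 point per array, for GM (53 arrays), MALP2 (6), Pam3CSK4 (6) and TNF-α (5), with replicates 1 to 3 in blue and higher numbers in orange. NFκB pathway genes and chemokines sit above every GM array on all 6 MALP2 arrays, interferon-stimulated genes are at 2.60 to 3.01 in replicates 1 to 3 and at 0.35 to 0.39 in replicates 4 to 6, and cornified envelope genes are higher in replicates 4 to 6 (1.51 to 1.66).

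Single genes followed the list to different degrees. SAMD9, an antiviral protein, ranged from 8.40 to 11.85 with GM and from 12.41 to 13.17 with MALP2, rising by 2.62 ± 0.27 (adjusted p = 3.3e-13) with 2.77 and 2.46 in the array sets, and it was the member whose MALP2 arrays all exceeded GM. GBP1, an interferon-induced GTPase, rose by 2.81 ± 0.43 (3.61 and 2.01 by set). USP18, which removes ISG15 from proteins and damps the interferon receptor, rose by 2.81 ± 0.53 (4.52 and 1.10), and IRF7, a transcription factor of interferon genes, by 2.13 ± 0.35 (2.72 and 1.55). The RNA sensor IFIH1 rose by 2.20 ± 0.40 (3.28 and 1.12), OAS1 by 2.46 ± 0.50 (3.56 and 1.35) and ISG20 by 2.29 ± 0.29 (3.34 and 1.24). MX1, a GTPase that blocks viruses, rose by 2.61 ± 0.74 (adjusted p = 0.015, 3.92 and 1.29 by set), and the call was lost without MALP2 replicate 1, 2 or 3 (adjusted p = 0.0797, 0.0677 and 0.0616). ISG15 and IFIT1, with GM means of 12.18 and 11.19, had differences of 1.11 and 1.52 that did not pass (adjusted p = 0.23 and 0.17), with 2.40 and 3.51 in replicates 1 to 3 and -0.18 and -0.47 in replicates 4 to 6.

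Class I antigen presentation, which interferon also raises, showed the same sets. Of 15 genes 3 rose and none fell, all 15 had the larger difference in replicates 1 to 3 (median 0.98 against -0.044), and 8 rose with replicates 1 to 3 alone, whereas none rose and 1 fell with replicates 4 to 6 alone. TAP1, a subunit of the peptide transporter, rose by 1.63 ± 0.30 (2.99 and 0.27 by set) and NLRC5, the transactivator of class I genes, by 1.81 ± 0.32 (3.20 and 0.43). HLA-E rose by 0.64 ± 0.17 and was lost without MALP2 replicate 1 (adjusted p = 0.056). B2M, the light chain, was at 14.57 ± 0.12 and 14.63 ± 0.13 (adjusted p = 0.71).

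Cornified envelope genes, which encode the cross-linked shell of squamous cells, were split the other way. Of 30 genes 11 rose and none fell, with a median difference of 0.91, and 8 rose with the random block. The median over the list was 0.41, 0.33 and 0.36 in MALP2 replicates 1 to 3 and 1.51, 1.65 and 1.66 in replicates 4 to 6, and 27 of the 30 genes had the larger difference in replicates 4 to 6. Replicates 1 to 3 alone raised 4 genes and replicates 4 to 6 alone raised 16. GM arrays ranged from -1.40 to 3.21 on this list, 12 of them reached the first MALP2 set and 3 the second.

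SPRR2B, a small proline-rich precursor of the envelope, went from 9.12 ± 1.77 to 13.53 ± 0.85 (difference 4.41 ± 0.63, adjusted p = 1.1e-07, 3.63 and 5.18 by set). Its relatives SPRR2G and SPRR2C rose by 4.27 ± 0.95 (2.30 and 6.24 by set) and 4.02 ± 0.55 (2.75 and 5.28), and probesets of these near-identical genes may share transcripts. LCE3D, a late envelope protein, rose by 3.41 ± 0.70 (2.10 and 4.73), CRCT1 by 3.03 ± 0.58 (1.78 and 4.28) and the cross-linking enzyme TGM1 by 2.99 ± 0.51 (2.59 and 3.40). IVL, the envelope protein involucrin, had a difference of 2.42 ± 0.76 (0.81 and 4.04 by set), which was lost with the random block (adjusted p = 0.072) and without MALP2 replicate 4, 5 or 6 (adjusted p = 0.14, 0.145 and 0.143). On none of the 30 genes were all 6 MALP2 arrays above GM.

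Of 22 keratins 4 rose and none fell, and 19 had the larger difference in replicates 4 to 6. The count of 4 was 2 with the random block, 2 with MALP2 replicates 1 to 3 alone and 2 with a filter at a mean log2 level of 6. KRT33A, a hair keratin, went from a dim 3.17 ± 1.04 to 8.01 ± 1.51 (difference 4.85 ± 0.43, 3.41 with the offset) and KRT75, of the hair follicle, rose by 2.61 ± 0.38. The suprabasal keratins KRT1 and KRT10 did not pass over 6 arrays (differences of 1.82 and 0.75, adjusted p = 0.30 and 0.27), and stood at -0.81 and -0.32 in replicates 1 to 3 against 4.46 and 1.82 in replicates 4 to 6. With replicates 4 to 6 alone both passed (adjusted p = 0.019 and 0.015). The difference between the sets itself was not tested.

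**Figure D4:**
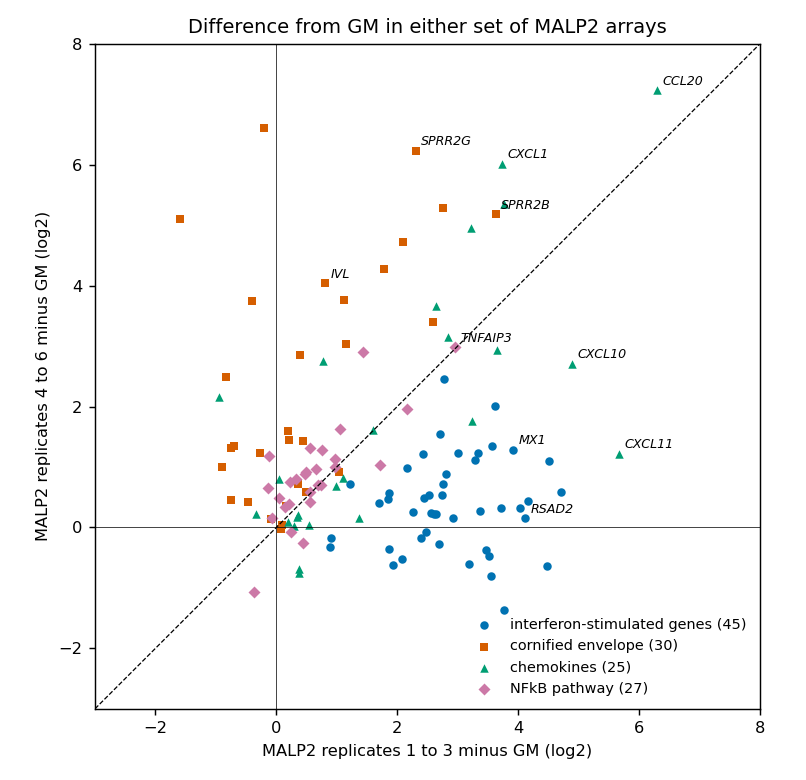
Log2 difference from GM in MALP2 replicates 1 to 3 (x axis) against that in replicates 4 to 6 (y axis), 1 point per gene, for interferon-stimulated genes (45, circles), cornified envelope genes (30, squares), chemokines (25, triangles) and NFκB pathway genes (27, diamonds), with equality as a dashed line. All 45 interferon-stimulated genes lie below the line, 27 of the 30 envelope genes above it, and TNFAIP3 is on it (2.96 and 2.99).

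Proteases and their inhibitors rose in 15 of 37 genes and fell in none (median 0.81, with 0.43 and 1.26 by set), and 8 rose with replicates 1 to 3 alone. The matrix metalloprotease MMP10 went from 7.72 ± 1.07 to 11.12 ± 0.18 (difference 3.40 ± 0.39, adjusted p = 6.2e-11) and MMP12, the macrophage elastase, from 6.12 ± 0.49 to 8.04 ± 0.31, both with every MALP2 array above GM. MMP13 rose by 3.21 ± 0.39 from a dim 3.02 (1.88 with the offset) and MMP9 by 1.68 ± 0.42. The inhibitors rose too, with SPINK6, which inhibits kallikreins, at 7.82 ± 0.99 and 12.01 ± 1.23, SERPINB4 higher by 3.41 ± 0.63, SERPINB1, an inhibitor of neutrophil elastase, higher by 1.84 ± 0.20, and TIMP1, an inhibitor of metalloproteases, higher by 1.11 ± 0.15. PLAUR, the urokinase receptor, rose by 1.62 ± 0.28.

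Of 32 cell junction genes 7 rose and none fell, and 24 had the larger difference in replicates 4 to 6. The tight junction proteins CLDN1 and CLDN4 rose by 3.52 ± 0.40 (2.34 and 4.69 by set) and 2.71 ± 0.67 (1.27 and 4.15), and OCLN by 1.62 ± 0.32 (0.86 and 2.38). CGN, which links tight junctions to actin, rose by 1.14 ± 0.10 on its brighter probeset and NECTIN2, an adherens junction protein, by 0.89 ± 0.13, on both with the MALP2 arrays above all GM arrays.

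Survival and surface genes followed. In the apoptosis list 7 of 19 rose and none fell, and CFLAR, which blocks caspase activation, ranged from 9.56 to 11.52 with GM and from 12.33 to 12.57 with MALP2 (rise 2.06 ± 0.18, adjusted p = 5.6e-17). The pro-apoptotic genes BAK1 and BID rose by 0.67 ± 0.13 and 0.56 ± 0.12. Of 19 adhesion and costimulation ligands 5 rose and none fell, namely ICAM1, the ligand of leukocyte integrins (1.14 ± 0.26), CD274, the checkpoint ligand for PD-1 (1.14 ± 0.21), CD83 (0.78 ± 0.16), the proteoglycan SDC4 (0.70 ± 0.13) and CD47, which inhibits phagocytosis (0.56 ± 0.11). All 5 were called with the random block.

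In the oxidant and prostaglandin list 2 of 23 rose and none fell. PTGS2, the inducible cyclooxygenase, went from 10.13 ± 1.38 to 13.09 ± 0.32 (difference 2.95 ± 0.52, adjusted p = 1.5e-05) and the mitochondrial superoxide dismutase SOD2 from 10.25 ± 0.84 to 12.38 ± 0.45 (difference 2.13 ± 0.33). Of 24 antimicrobial and acute phase genes 9 rose and 1 fell. The complement factor CFB rose by 2.97 ± 0.49, SERPINA3 by 2.47 ± 0.54 from a dim 5.91 (2.09 with the offset), and the elastase inhibitors PI3 and SLPI by 1.96 ± 0.52 and 1.45 ± 0.40 to 14.23 and 14.59. The complement regulators differed in direction, as CD55 and CD59 rose by 1.57 ± 0.29 and 0.54 ± 0.10 while CD46 fell by 0.44 on the log2 scale (SE 0.09).

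Metabolic genes with known links to immunity rose in 9 of 27 cases and fell in 1. STEAP4, a metalloreductase, rose by 2.77 ± 0.46 (1.50 and 4.04 by set), GCH1, which makes tetrahydrobiopterin, by 2.16 ± 0.30, and DHRS9, a retinol dehydrogenase, by 1.88 ± 0.20 with no overlap. Enzymes of vitamin D rose, CYP27B1 that activates it by 0.83 ± 0.14 and CYP24A1 that degrades it by 1.47 ± 0.36, while the receptor VDR fell by 0.60 on the log2 scale (SE 0.15). ODC1, the first enzyme of polyamine synthesis, rose by 0.72 ± 0.13 to 14.64 ± 0.04. Of 16 genes of scavenger receptors, caveolae and lipid droplets 2 rose, OLR1 and G0S2, and 1 fell, CAVIN2. G0S2, an inhibitor of fat breakdown, rose by 2.32 ± 0.41 while in the list of metallothioneins, zinc carriers and NRF2 targets 2 of 22 rose and 3 fell (1 and 2 with the random block). The aldo-keto reductase AKR1C1 rose by 1.38 ± 0.31. SLC7A11, the cystine carrier for glutathione synthesis, fell by 1.58 on the log2 scale (SE 0.32), with all MALP2 arrays below GM, which was so for 0.157% of all genes, and GCLM, a subunit of the enzyme that follows, fell by 0.72 (SE 0.14).

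Among 34 transcription factors of epithelium and inflammation 9 rose and 1 fell. PRDM1, a transcriptional repressor, rose by 2.03 ± 0.29, MAFF by 1.48 ± 0.38, STAT5A by 1.12 ± 0.16 and the clock factor BMAL2 by 0.96 ± 0.11, the last without overlap between the groups. GRHL2, an epithelial factor, fell by 0.69 on the log2 scale (SE 0.16). Of 36 immediate early and MAPK feedback genes 7 rose and 1 fell, the largest rise being DUSP1, a MAPK phosphatase, at 1.64 ± 0.31, followed among those named here by KLF6 at 0.85 ± 0.18. JUN, a subunit of AP-1, fell by 0.74 on the log2 scale (SE 0.21).

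Genes that fell were fewer in the lists and smaller in change. Notch and Wnt genes had 6 of 38 lower and 1 higher (median -0.16), of which 3 lower and 0 higher were called with the random block and 4 to 5 lower with 1 MALP2 array left out. The methods' analysis of variance, counted with the 2-fold limit, gave 2 lower and 0 higher, as many as passed that limit in the main fit. Those lower with the block were WNT5A, LFNG and TNIK. WNT5A, a ligand of non-canonical Wnt signalling, ranged from 7.56 to 9.07 with GM and from 6.81 to 7.23 with MALP2, a fall of 1.35 on the log2 scale (SE 0.14, adjusted p = 5.7e-13) with no overlap. LFNG, which glycosylates Notch, went from 8.87 ± 0.58 to 6.26 ± 2.04 (-0.86 and -4.37 by set), and the Wnt kinase TNIK fell by 0.98 (SE 0.16). Of 28 integrin, laminin and matrix genes 4 rose and 2 fell. TNC and the collagen receptor subunit ITGA2 rose by 1.25 ± 0.22 and 1.23 ± 0.25, while COL8A1, a short-chain collagen, went from 8.98 ± 1.40 to 6.00 ± 1.77 and the laminin chain LAMB1 fell by 1.05 (SE 0.17).

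Of 14 p53 targets 1 rose and 3 fell, but 1 fell with the random block, 1 without MALP2 replicate 4 and 5 without quantile normalization. CDKN1A, an inhibitor of cyclin-dependent kinases, rose by 1.34 ± 0.27 (0.66 and 2.01 by set) and ZMAT3 fell by 1.06 on the log2 scale (SE 0.21). Of 39 cell cycle genes 3 rose and 1 fell (1 and 1 with the random block), near the shares over all genes, with CCNE1 higher by 0.73 ± 0.17 and CDK4 at 12.54 ± 0.18 with GM and 12.06 ± 0.11 with MALP2. Of 6 mucins 1 rose (0 without MALP2 replicate 4, 5 or 6), and none of the 8 reference genes changed (1 was lower at an unadjusted p under 0.05). In the TGF-β and BMP list 3 of 25 rose and 1 fell (2 and 0 with the random block), with BMP2 higher by 1.18 ± 0.21 and SMAD3 by 0.83 ± 0.15.

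Of the 15 genes that fell most, COL8A1, LFNG and CAVIN2 of the lists included, 12 had dim MALP2 means. Each was ranked by its probeset of largest change, and other probesets did not always fall at an adjusted p under 0.05. Those that fell were 3 of 11 for SLC8A1, 1 of 4 for CCDC169 and THRAP3, 1 of 3 for FLYWCH1 and COL8A1, and 1 of 2 for F2R. They were 2 of 4 for EFNA5 and NFIC, 3 of 4 for MPHOSPH9, 7 of 9 for NFIB and all for LFNG, BBS4, CAVIN2, PIK3C2B and SLC29A3. PIK3C2B, a phosphoinositide kinase, went from 9.10 ± 1.00 to 6.33 ± 0.32 (fold 6.80, adjusted p = 3.1e-07) and F2R, the thrombin receptor, from 9.12 ± 0.56 to 6.95 ± 0.60 (fold 4.49). The transcription factors NFIB and NFIC reached 5.54 ± 1.25 and 4.97 ± 0.73 from 8.07 and 7.16, changes of -2.53 and -2.20 (-2.11 and -1.75 with the offset). MPHOSPH9, a protein of the centriole, reached 4.15 ± 1.29 from 7.05 on its dimmer probeset (-2.08 with the offset) and 7.05 ± 0.31 from 8.61 on another. CAVIN2, a protein of caveolae, reached 5.28 ± 0.56 from 7.56 (-2.29, or -1.90 with the offset). BBS4, SLC29A3, SLC8A1, CCDC169 and FLYWCH1 also fell, with log2 differences of -2.39 to -2.10, to MALP2 means of 4.92 to 5.56, and had differences of -1.98 to -1.40 with the offset. EFNA5 fell from 7.25 to 4.93 (-2.32, or -1.55 with the offset, and -4.33 and -0.31 by set) and was lost without MALP2 replicate 1 (adjusted p = 0.0649). THRAP3 reached 5.90 from 8.00 and was lost with the random block (adjusted p = 0.089) and without MALP2 replicate 4, 5 or 6 (adjusted p = 0.0886, 0.083 and 0.115).

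Compared directly with TNF-α, which acts through its own receptors but also activates NFκB, MALP2 gave 66 higher and 23 lower probesets (0.121% and 0.0421% of those tested). Of 19775 genes by their brightest probeset, 0.248% were higher and 0.116% lower than with TNF-α at an adjusted p under 0.05, and the lists with over 1 such gene were proteases and inhibitors (3 of 37 higher), chemokines, apoptosis regulators, keratins and cell junctions (2 each). With the random block 1 gene each remained for chemokines, keratins and cell junctions, 2 for proteases and inhibitors and 0 for apoptosis regulators. CXCL1 (2.34 above TNF-α, adjusted p = 0.020, 0.39 with the block), CLDN1 (2.28, 0.042 and 0.29), KRT75 (2.21, 0.037 and 0.14), CFLAR (1.14, 0.012 and 0.061) and MMP10 (2.38, 0.023 and 0.054) were among those lost, and CXCL1 was lost also without MALP2 replicate 4, 5 or 6 or TNF-α replicate 1, 3 or 5 (adjusted p between 0.0506 and 0.0945). Both means are set beside GM and Pam3CSK4 in the plot of genes by treatment, with Pam3CSK4 untested since its dose differed. MGAM stood at 7.56 ± 0.83 (SD, n = 6) with MALP2, 2.61 ± 0.56 (n = 5) with TNF-α, 3.39 ± 1.20 (n = 6) with Pam3CSK4 and 2.51 ± 0.80 (n = 53) with GM. It was the largest difference from TNF-α, 4.95 ± 0.53 on the log2 scale (limma, adjusted p = 8.3e-11), and was called with the random block (adjusted p = 0.00012). CCL4 stood at 7.76 ± 0.93 with MALP2 and at 3.43 ± 0.35, 4.24 ± 0.62 and 3.20 ± 0.47 with TNF-α, Pam3CSK4 and GM, a difference of 4.33 ± 0.36 from TNF-α (adjusted p = 1.8e-16, 2.8e-08 with the block). KRT33A followed at 4.32 ± 0.60 above TNF-α (9.5e-05 with the block), from means of 8.01 with MALP2, 3.70 with TNF-α and 4.38 ± 1.90 with Pam3CSK4.

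**Figure D5:**
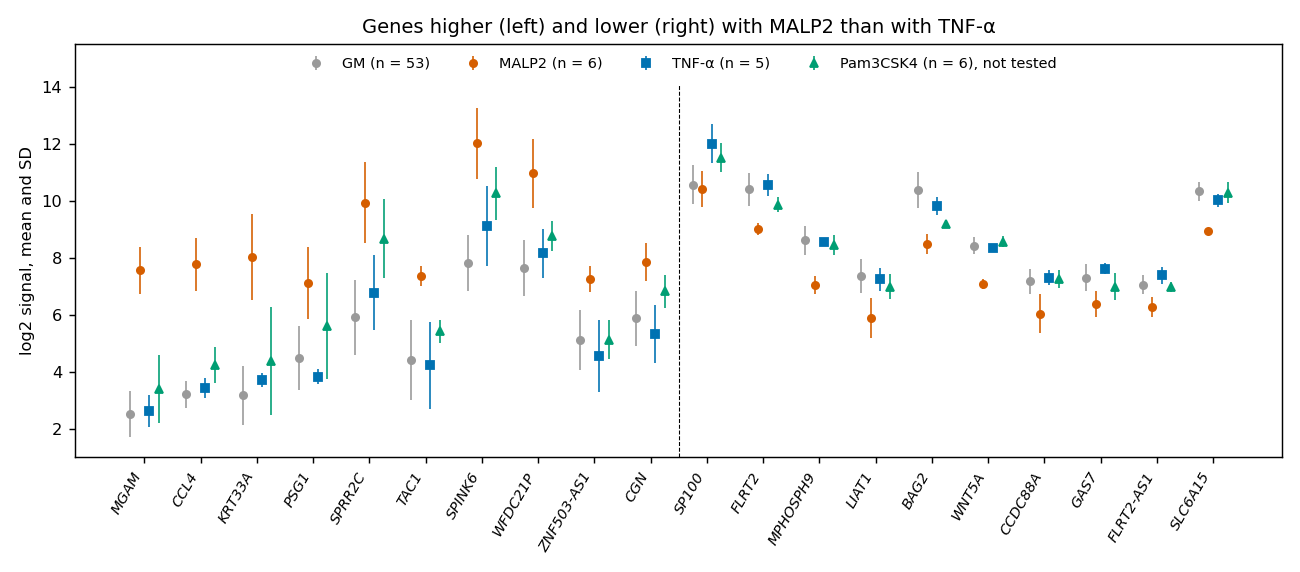
Log2 signal (y axis), mean and SD, of the 10 genes higher and the 10 lower with MALP2 than with TNF-α, for GM (n = 53), MALP2 (n = 6), TNF-α (n = 5) and Pam3CSK4 (n = 6, not tested). MGAM and CCL4 are near the GM level with TNF-α and at 7.56 and 7.76 with MALP2, and WNT5A is below the other groups with MALP2 (7.08).

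SPINK6 (difference 2.88 ± 0.57, adjusted p = 0.0039, 0.040 with the block), EDN1 (2.52 ± 0.51, 0.0048 and 0.018), DHRS9 (2.16, 4.6e-08 and 5.8e-05) and MMP12 (1.97, 2.5e-06 and 0.015) were higher than with TNF-α both without and with the random block. CGN was higher by 1.18 on its brighter probeset (adjusted p = 2.1e-08, 1.2e-05 with the block). Lower with MALP2 both without and with it were WNT5A, at 7.08 ± 0.17 against 8.35 ± 0.15 with TNF-α, 8.55 ± 0.19 with Pam3CSK4 and 8.42 ± 0.30 with GM (difference -1.27 ± 0.19, adjusted p = 1.8e-05 and 0.00066), and the amino acid carrier SLC6A15, at 8.95 ± 0.09 against 10.02 ± 0.23 (difference -1.07 ± 0.19, 0.00046 and 0.0065). TLR2 was 1.11 higher than with TNF-α (adjusted p = 0.010) and was lost with the block (adjusted p = 0.46). BCL2A1 was 2.15 higher (adjusted p = 0.021) and was lost with the block (adjusted p = 0.37) and without MALP2 replicate 6 or TNF-α replicate 4 or 5 (adjusted p = 0.0547, 0.0973 and 0.103).

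The remaining genes of the 10 with the largest differences in either direction passed without the block and not with it. Of those higher with MALP2, the block gave adjusted p = 0.079 for PSG1, 0.85 for SPRR2C, 1 for TAC1, 0.093 for WFDC21P, 0.62 for ZNF503-AS1 and 0.99 for the dimmer CGN probeset. Of those lower, it gave 0.13 for SP100, 0.081 for FLRT2, 0.11 for MPHOSPH9, 0.36 for LIAT1, 0.19 for BAG2, 0.26 for CCDC88A, 1 for GAS7 and 0.38 for FLRT2-AS1. SP100 was at 10.41 ± 0.63 with MALP2, 10.56 ± 0.68 with GM and 12.01 ± 0.69 with TNF-α. Apart from PSG1, WFDC21P and ZNF503-AS1, these genes also lost the call without single arrays, each of 2 to 10 of the 11 in turn, with adjusted p between 0.0503 and 0.366. The count of 89 probesets called became 23 with the block, and it moved to 57 without MALP2 replicate 5, 48 without TNF-α replicate 1 and 52 without TNF-α replicate 3.

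Interferon-stimulated and cornified envelope genes differed by array set with the other ligands too, whose values are given from the same GM mean. The median over the interferon-stimulated genes was 2.12 to 2.26 in TNF-α replicates 1 to 3 and 0.48 and 0.52 in replicates 4 and 5, and 1.35 to 1.53 and -0.020 to 0.47 in the Pam3CSK4 sets. Over the cornified envelope genes it was -0.43 to -0.046 and 1.56 to 1.73 in the TNF-α sets and 0.35 to 0.84 and 2.70 to 2.90 in the Pam3CSK4 sets. The labels do not tie replicate numbers across treatments, though MALP2 and TNF-α arrays of like sets deviated together over all probesets (correlations given in the last section).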

How the data were processed

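RNA of each sample was read on 1 whole-genome Affymetrix U133 array. The authors deposited log2 signal values per probeset; MAS5 and GCOS 1.3 are listed, with no stated role, in the submitters' processing notes, whereas the study's methods describe RMA in GeneSpring, so which of these made the log2 values is not settled. All log2 levels here are those deposited values after quantile normalization over 103 of the 105 arrays (GM replicate 52 and TNF-α replicate 6 were left out). The 62 Affymetrix control probesets were left out. Array number and signal over background limit precision, and the 95% interval of a log2 difference extended a median of 0.576 to either side.

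Groups were compared in a single limma fit with Benjamini-Hochberg adjustment over 54613 probesets (limma 3.58.1, R 4.3.3). The fit held 8 treatment groups, namely GM, MALP2, TNF-α, Pam3CSK4, imiquimod, N-9, HEC and CMC. They shared an estimate of the spread, and the brightest probeset of a gene was chosen over all their arrays. A probeset was called at an adjusted p under 0.05 and a fold over 2; members of gene lists were counted at the adjusted p alone, in the brightest probeset naming the gene alone. Platform annotation named 1 gene for 41091 probesets, several for 1801 and none for 11721. The genes named are the 4 markers BCL2A1, CXCL8, IL1R2 and OLR1, the 25 that rose most and 15 that fell most among called probesets with a group mean of at least 7, the 10 most different from TNF-α in each direction, and list members. Genes were ranked by their probeset of largest change. Members and lists were chosen with earlier results of these data known, so they are no independent evidence of direction. A set is 3 consecutive replicate numbers of a group; the labels do not state such sets. They entered an alternative fit as a random block (consensus correlation 0.436). Same-numbered MALP2 and GM arrays did not deviate together (correlations of -0.0192 to 0.0763).

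Alternatives were no quantile normalization, fitting only the groups compared, an offset of 16 on linear signals, a filter at a mean log2 of 6, the random block, the methods' analysis of variance, each array left out, each MALP2 set alone, GM replicates 1 to 6 with and without the replicate block, no fold limit and, chosen after seeing the data, leaving out 4 arrays with an ACTB difference over 1. The p-value of the analysis of variance was for all treatment groups together, and only the fold limit was applied to the pair compared. Promoters came from RefSeq (GRCh38.p14). Figures used Python 3.11.15, pandas 2.3.3 and matplotlib 3.10.9.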

Additional observations from a re-analysis of the deposited data

Results flagged for a closer look

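In 6 of 179 named genes tested, 1 of the 6 MALP2 arrays stood far from the rest (its gap to the nearest array over the whole range of the group), where chance alone marks about 1 in 20 groups. For BCL2A1 this was replicate 6, at 12.64 against a next value of 12.32 (ratio 0.83). For the dimmer MPHOSPH9 probeset it was replicate 6, at 6.67 against 4.07 (ratio 0.719). For SLC29A3 it was replicate 6, the lowest at 4.91 against 5.26 (ratio 0.649). For CCDC169 it was replicate 1, at 0.68 against 4.76 (ratio 0.672), both dim levels. For SLC6A15 it was replicate 4, at 9.11 against 8.97 (ratio 0.651). For RELA it was replicate 1, at 11.38 against 11.08 (ratio 0.665). Of 20 genes tested on the 5 TNF-α arrays, TAC1 had replicate 3 at 1.51 against 4.62 (ratio 0.836) and ZNF503-AS1 had replicate 4 at 6.75 against 4.45 (ratio 0.752).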

How the results depend on the processing

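Of 154 named genes called against GM, none changed direction under the alternatives run (the filter tested 142 of them), and 153 kept the call without quantile normalization, 154 with the offset, 147 with the random block, 149 to 152 with 1 MALP2 array left out, 111 with MALP2 replicates 1 to 3 alone, 126 with replicates 4 to 6 alone, 124 with GM replicates 1 to 6 as controls and 100 with the replicate block over those. Against GM, the 1200 probesets called (734 higher, 466 lower, 61.2% higher) became 663 with the random block (491 higher, 172 lower, 74.1% higher), 3417 with GM replicates 1 to 6 as controls (1659 and 1758), 2471 with the replicate block over those (1157 and 1314) and 3794 with no fold limit (1793 and 2001), and 259 were lower with the offset. With 1 MALP2 array left out they were 994 to 1169 (621 to 689 higher, 373 to 496 lower). The numbers were not taken to pair the arrays, and the cause of these shifts was not tested. Against TNF-α, the 89 called became 23 with the random block (21 and 2) and 136 with no fold limit (44 lower). They became 242 with MALP2 replicates 1 to 3 alone (149 lower) and 170 with replicates 4 to 6 alone (116 and 54). The replicate block in limma left 0 (0 higher and 0 lower, 6713 at an unadjusted p under 0.05, lowest adjusted p 0.0742). All 27 named calls were lost with that block. MALP2 and TNF-α arrays of the same number had correlations of their deviations of 0.0483 to 0.146. Arrays of different numbers within like sets (replicates 1 to 3, or 4 and 5) had 0.0444 to 0.138, and arrays of unlike sets had -0.107 to -0.0623. Arrays thus deviated together by set, whether or not their numbers matched. The methods' analysis of variance gave 1028 (566 and 462), but its p-value was for any difference among all treatment groups. Those 1028 passed the fold limit between MALP2 and TNF-α, and that pair was not tested by it. Lower probesets numbered 14 with the offset (98 called, 85.7% higher against 74.2%) and 14 without the 4 arrays of high ACTB difference. With 1 array left out the calls were 57 to 88 (41 to 67 higher, 13 to 23 lower) for MALP2 and 48 to 72 (41 to 55 higher, 7 to 17 lower) for TNF-α. List members that rose numbered 174 to 183 and those that fell 19 to 25 with 1 MALP2 array left out, and those that fell were 16 with the random block, 13 with the analysis of variance (counted with the 2-fold limit, unlike the others), 13 with replicates 1 to 3 alone and 16 with the replicate block, which left 7 NFκB pathway genes higher and 1 lower, 6 interferon-stimulated genes higher and 0 class I genes higher. No array set can be tied to a culture or day, folds of dim probesets can be inflated, and with 6 arrays many small differences may have been missed.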
